A study of Mus musculus with 58 samples.

Results

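Whether normal liver taken from an animal that also gave a tumor differs from normal liver of an animal that gave none was asked on 29 of the 58 arrays of the series, all labelled as normal tissue. In 18 of them the title names an animal that also has a tumor array, and these are called paired. In the other 11 the title names no animal with a tumor array, and these are called unpaired. The labels do not state that the unpaired animals were free of tumors. All animals, both groups alike, were of a mixed FVB/NJ, C57BL/6 and 129/Sv background, received adeno-associated virus (AAV) shortly after birth and were sampled as adults. AAV is a gene therapy vector whose DNA can insert into the genome of liver cells, and the study asked whether such insertion contributes to hepatocellular carcinoma. Vector, dose and exact age are not given per array in the labels, and no array of uninjected liver was used here.

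The paired group held 7 arrays labelled female and 11 labelled male, and the unpaired group 2 female and 9 male. Titles carried the mark -/- on 1 paired and 3 unpaired arrays and +/- on 4 paired and 1 unpaired arrays, and the labels do not say which allele is meant. One paired title also names GFP. The 29 titles were read as 29 animals over 18 title numbers. The title 42946-1m stands on 2 arrays, both unpaired, which were kept apart by their marks alone, +/- and -/-. The titles of 3 unpaired arrays, 7064-A, MS0906414C and MS0907064E, are unclear on the animal, and tumor titles share their numbers, so their place among the unpaired arrays is a reading of the titles. Numbers given to arrays below, such as normal paired 16, only name them.

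Normal liver is mostly hepatocytes, which make plasma proteins, burn fatty acids, clear ammonia through the urea cycle and follow sex-specific and daily programs. Inflammation shifts hepatocytes toward acute phase proteins, and resident macrophages (Kupffer cells) and incoming neutrophils add their own transcripts to whole tissue. In whole tissue, fewer cells of a type and less RNA per cell cannot be told apart. Hepatocyte markers were bright in both groups. Alb, which encodes albumin, had a mean log2 value of 13.74 ± 0.093 (SD, n = 18) in paired and 13.69 ± 0.060 (n = 11) in unpaired arrays, and Apob, of very low density lipoprotein, 12.98 ± 0.11 and 12.95 ± 0.079. The 9 measured hepatocyte markers had a median change of 0.03 on the log2 scale, against 0.004 over all 22180 genes.

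Before any comparison, several arrays stood apart. The array titled 42946-1m and marked -/- (normal unpaired 9) had the most tumor-like value of all 29 normal arrays for 18 of the 20 genes of largest tumor change. These genes were picked earlier on the same series, so the count is a description. Its log2 value for Cyp11a1, the enzyme that starts steroid hormone synthesis, was 11.39, while the other 28 normal arrays ran from 6.18 to 6.97 and the tumor median was 11.13. Its value for Slco1b2, a hepatocyte uptake transporter, was 5.81, against 10.44 to 12.08 in the other normal arrays and a tumor median of 7.63. For Afp, alpha-fetoprotein of fetal liver and liver cancer, it read 10.09, while the 18 paired arrays reached at most 8.51. It was past the tumor median in 16 of the 20 genes, although it is labelled normal.

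**Figure D1:**
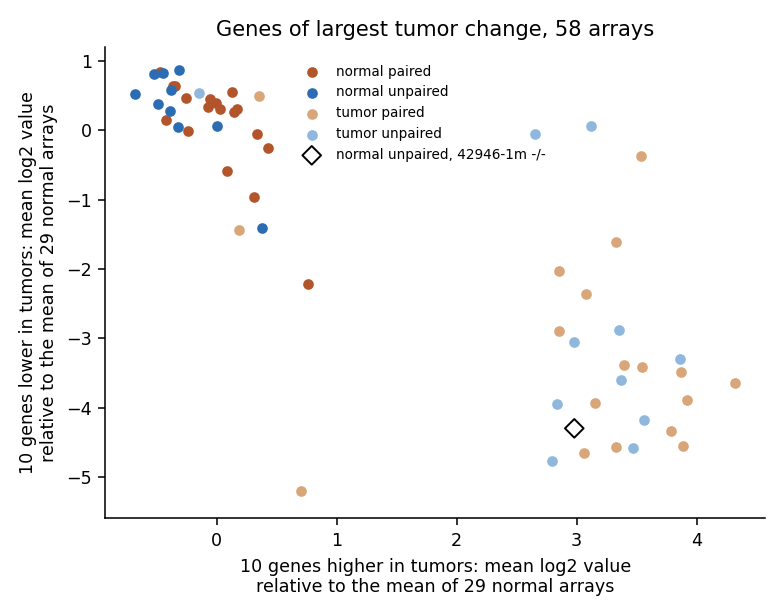
Mean log2 value of 10 genes higher in tumors (horizontal axis) and 10 genes lower in tumors (vertical axis), each gene relative to its mean over the 29 normal arrays, with 1 point for each of the 58 arrays. The open diamond is the array titled 42946-1m and marked -/-, at 2.98 and -4.30, among the tumors. The 18 paired normal arrays lie between -0.47 and 0.77 on the horizontal axis. On the vertical axis they lie between -2.22, normal paired 16, and 0.84. Tumor paired 1 (0.357 and 0.496), tumor paired 18 (0.185 and -1.43) and tumor unpaired 6 (-0.15 and 0.544) lie within both ranges.

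Normal paired 16 had the lowest mean correlation with the other normal arrays (0.933), and the highest level of acute phase genes. In 3 paired arrays (normal paired 3, 14 and 15) Xist and the 3 Y-linked genes measured, Kdm5d, Uty and Eif2s3y, went against the gender label, and the tumor arrays of these 3 animals did so too, whereas 0 of 11 unpaired normal arrays did. Of the 58 arrays 7 went against their label, and the remaining one was tumor unpaired 10, titled 42946-1f and marked -/-, labelled female, with Xist 3.2 log2 units below the mean of the Y-linked genes. It shares title number and mark with the normal array 42946-1m marked -/-, and whether both came from 1 animal was not tested. With that normal array counted as paired, a choice made after seeing the data, 0 genes were called. Array medians differed by -0.009 on the log2 scale between paired and unpaired arrays (two-sided permutation test, p = 0.780, 100000 resamples). The mean correlation with the other normal arrays was 0.9614 ± 0.0087 (n = 18) in paired and 0.9642 ± 0.0062 (n = 11) in unpaired arrays (same test, p = 0.380). Each normal array was read as a separate animal, those titled 42946-1m by their marks alone, so the spread below is mostly between animals.

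Paired and unpaired normal liver differed in few genes past the threshold. With sex as labelled in the fit (limma, Benjamini-Hochberg adjusted p under 0.05), 2 of 22180 genes (0.00902%) were lower in paired liver and 0 (0%) were higher. Both genes that fell were below a log2 change of 1 in size. They were Slc25a34, a member of the mitochondrial carrier family, and Tob1, of the BTG/TOB family of proliferation inhibitors that bind the deadenylase complex. Without adjustment, 1768 genes (7.97%) had p under 0.05, of which 585 (2.64%) were higher and 1183 (5.33%) lower in paired liver. Without the array titled 42946-1m and marked -/-, 0 genes passed, the smallest adjusted p was 0.0545, and 1998 genes (9.01%) had an unadjusted p under 0.05. Without both arrays titled 42946-1m, a choice made after seeing the data, 62 genes were called lower and 5 higher. With the 3 arrays of unclear title counted as paired, or left out, also choices made after seeing the data, 0 were called, and the smallest adjusted p was 0.565 and 0.154. The median half-width of the 95% confidence interval was 0.20, and for 21814 genes (98.3%) the interval lay within 1 log2 unit of no change.

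The promoters of both called genes are shown because these are the genes the comparison rests on. Each is the 300 bases from 250 before to 50 after the start, from RefSeq on GRCm38.p6, read 5′ to 3′ along the gene. Capitals mark CCAAT (or ATTGG on the other strand) and TATAAA. Slc25a34 lies at chr4:141623785-141624084 on the minus strand and Tob1 at chr11:94211204-94211503 on the plus strand.
Slc25a34: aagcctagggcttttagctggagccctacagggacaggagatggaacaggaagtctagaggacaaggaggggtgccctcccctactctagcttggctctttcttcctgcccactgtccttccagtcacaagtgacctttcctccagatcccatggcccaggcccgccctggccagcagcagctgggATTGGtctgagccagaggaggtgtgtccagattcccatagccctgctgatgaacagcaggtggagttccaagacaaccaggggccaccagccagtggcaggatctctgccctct
Tob1: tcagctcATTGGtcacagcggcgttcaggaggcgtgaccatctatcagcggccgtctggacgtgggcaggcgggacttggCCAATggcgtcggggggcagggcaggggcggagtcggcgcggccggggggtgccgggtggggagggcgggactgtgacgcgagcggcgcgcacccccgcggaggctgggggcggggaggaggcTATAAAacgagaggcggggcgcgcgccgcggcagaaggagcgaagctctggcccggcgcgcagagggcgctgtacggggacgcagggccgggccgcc
Of 32851 promoters of this length, 37.4% hold CCAAT on either strand, and both of these do, Slc25a34 at base 187 and Tob1 at bases 8 and 81. TATAAA is in 13.6% of promoters and at base 204 of Tob1. CACGTG, a motif in 7.15% of promoters, is in neither window. A match is a description of the letters and not a measured site.

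Slc25a34 (transcript cluster 17432256) had log2 values from 6.92 over a median of 7.32 to 7.93 in the 18 paired arrays and from 7.39 over 7.94 to 8.21 in the 11 unpaired arrays. The groups overlapped, but 18 of 18 paired arrays lay below the unpaired median and 13 of 18 below the lowest unpaired array. It fell by 0.55 ± 0.095 (SE) on the log2 scale in paired liver, a 1.47-fold difference (limma adjusted p = 0.0364). Without the array titled 42946-1m and marked -/- the change was -0.56 with an adjusted p of 0.0545.

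Tob1 (cluster 17255210) ran from 8.15 over a median of 9.41 to 10.04 in paired and from 9.58 over 10.26 to 10.68 in unpaired arrays. All 18 paired arrays lay below the unpaired median, 12 of them below the lowest unpaired array, and 7 of 11 unpaired arrays were above the highest paired one. It fell by 0.94 ± 0.166 (SE) on the log2 scale, a 1.92-fold difference (limma adjusted p = 0.0364), and by 0.94 with an adjusted p of 0.0553 without the array titled 42946-1m and marked -/-. The same direction was seen within each labelled sex, with 2 unpaired females only. The means of Tob1 were 9.42 in paired and 10.56 in unpaired females and 9.27 and 10.15 in males. Such counts and directions of Slc25a34 and Tob1 follow in part from choosing genes by their p in these same arrays.

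Both calls sat close to the threshold. Over 29 fits that each left out 1 array, the change of Slc25a34 lay between -0.60 and -0.52 and that of Tob1 between -1.004 and -0.861, and each passed in 16. Both calls were lost without any one of normal paired 2, 4, 5, 7 and 12 or normal unpaired 1, 2, 3, 7, 8, 9 and 11, that of Slc25a34 also without normal paired 15, and that of Tob1 also without normal unpaired 5. Adjusted p ran from 0.00393 to 0.1504 for Slc25a34 and from 0.0163 to 0.1504 for Tob1.

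**Figure D2:**
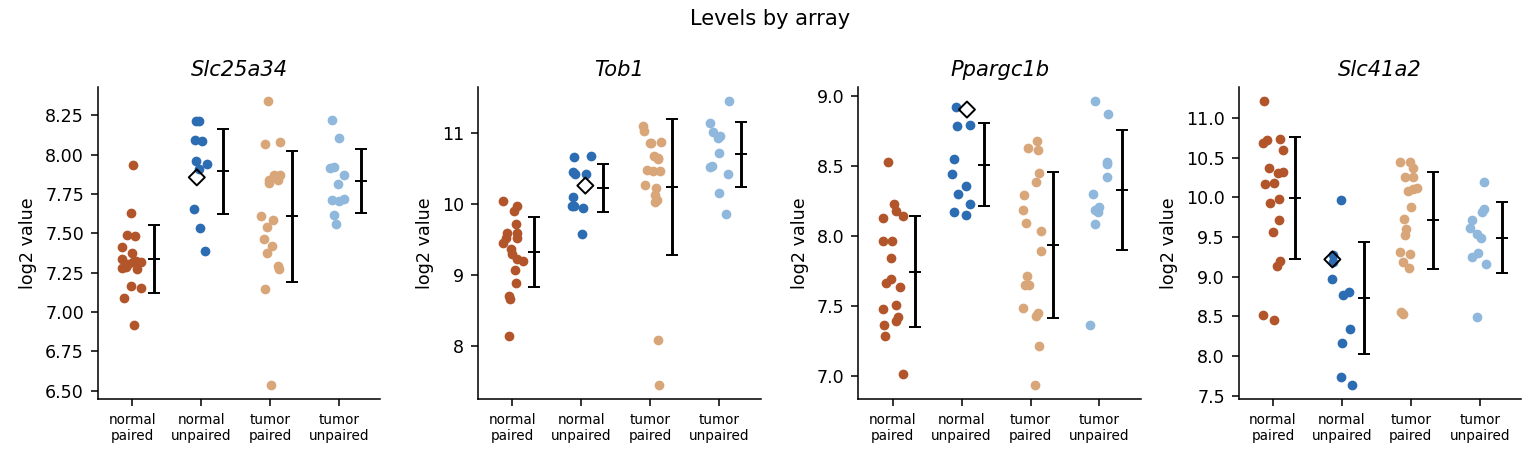
Log2 value of Slc25a34, Tob1, Ppargc1b and Slc41a2 in every array of the 4 groups, with the mean and SD (bars) beside the points; the open diamond is the array titled 42946-1m and marked -/-. In Slc25a34 and Tob1, the paired normal arrays (means 7.34 and 9.33) lie mostly below the unpaired ones (means 7.89 and 10.23), with overlap, and neither Ppargc1b nor Slc41a2 passed the threshold.

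The 8 genes of next smallest p among those lower in paired liver did not pass as reported. All 8 passed with array weights, a fit that called 339 genes lower and 93 higher. Ppargc1b encodes a coactivator of mitochondrial and lipid genes. It ran from 7.01 over 7.67 to 8.53 in paired and from 8.15 over 8.44 to 8.92 in unpaired arrays, with 15 of 18 paired arrays below the lowest unpaired one. Its change was -0.73 ± 0.137 (SE; adjusted p = 0.0568), and it passed in 8 of the 29 fits that each left out 1 array. Ctcflos, a noncoding gene named for lying opposite Ctcf, had the largest difference of the 8, -1.39 ± 0.264 (adjusted p = 0.0568). Gas2, a growth arrest protein bound to actin filaments, had a change of -0.69 (adjusted p = 0.0601). Slc25a10, the mitochondrial dicarboxylate carrier, had a change of -0.68, Ap3m1, of the AP-3 sorting complex, -0.61, and Cenpb, a centromere binding protein, -0.51. Slc15a4, a lysosomal peptide and histidine transporter, and Pnldc1, an exonuclease that trims small RNAs, both had a change of -0.42, and the adjusted p of these last 5 genes was 0.0959. In all 8 genes at least 17 of 18 paired arrays lay below the unpaired median, a count that follows from choosing genes by their p.

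None of the 10 genes of smallest p among those higher in paired liver passed as reported, while all 10 passed with array weights. Slc41a2, a magnesium transporter, ran from 8.45 over 10.17 to 11.21 in paired and from 7.63 over 8.81 to 9.96 in unpaired arrays. Its change was 1.30 ± 0.277 (SE; adjusted p = 0.0959), and 11 of 18 paired arrays were above the highest unpaired one. Slc37a1, a sugar phosphate transporter, had a change of 0.93 and Acnat2, which joins fatty acids to amino acids, 0.94 (adjusted p = 0.128 for both). Secreted liver proteins made up part of the 10. Fgl1, a fibrinogen-like hepatocyte protein, had a change of 0.83 (adjusted p = 0.134), Apcs, serum amyloid P, 1.03 (0.174) and Serpina10, an inhibitor of clotting proteases, 0.69 (0.177). The others were Dnajc12, a co-chaperone (1.29), Chac1, a glutathione-degrading enzyme of the amino acid stress response (0.67), Tars, a tRNA synthetase (0.53), and Plppr1, of the phospholipid phosphatase related family (0.69), with adjusted p between 0.176 and 0.177. Normal paired 1 was the lowest paired array in 7 of these 10 genes, Slc41a2, Fgl1, Apcs, Dnajc12, Chac1, Serpina10 and Tars.

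Acute phase and inflammation genes, the secreted and cellular products that inflamed liver makes, were mostly above unpaired liver in paired liver, without passing the test. Of 33 measured, 0 were called, 32 had a positive change, and the median was 0.38 against 0.004 over all genes. At an unadjusted p under 0.05, 16 were higher and 1 lower, beside 2.64% and 5.33% of all genes. Lcn2, an iron-scavenging protein of innate defence, ran from 9.31 over 11.62 to 12.86 in paired and from 8.94 over 9.97 to 12.57 in unpaired arrays, a difference of 1.08 ± 0.410 (SE; adjusted p = 0.441). Cp, the copper-carrying ferroxidase, differed by 0.35 ± 0.100 (adjusted p = 0.274). The mean level of the list, relative to the 29 normal arrays, ran from -0.59 over 0.02 to 1.48 in paired and from -0.995 over -0.34 to 0.63 in unpaired arrays. The groups overlapped widely. The highest arrays were normal paired 16 (1.48) and 18 (1.02), and 1 unpaired array, the one titled 42946-1m and marked +/-, also read high at 0.63. Without normal paired 16 and 18, 29 of 33 were positive with a median of 0.34. In male-labelled arrays alone, 25 of 33 were positive with a median of 0.28. With the 3 arrays of unclear title counted as paired, 31 of 33 were positive with a median of 0.27. Of the acute phase and inflammation list, 7 genes were called with array weights (smallest adjusted p 0.0118) and 1 without both arrays titled 42946-1m (0.0456). Over all 22180 genes the fit with array weights called 339 lower and 93 higher. That fit also called members of other lists, among them 4 of the propionate and branched-chain list and 3 of the cytochrome P450 list. The fit without both arrays titled 42946-1m called 62 lower and 5 higher.

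**Figure D3:**
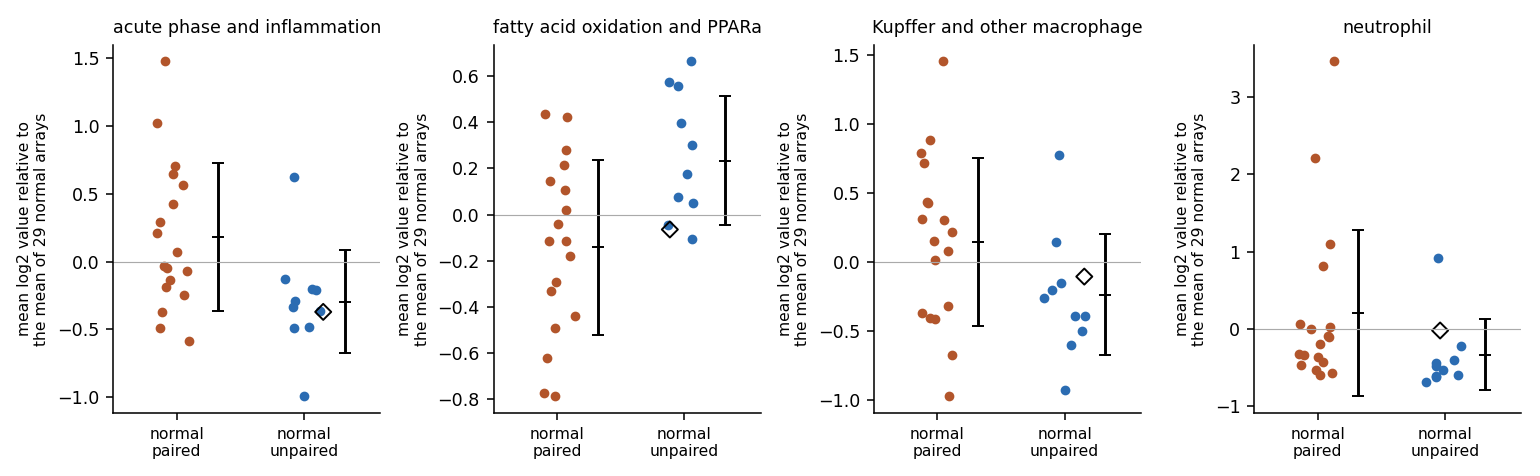
Mean log2 level of 4 gene lists in each normal array, each gene relative to its mean over the 29 normal arrays, for paired (18) and unpaired (11) arrays, with mean and SD as bars; the open diamond is the array titled 42946-1m and marked -/-. The groups overlap in all 4 lists, and the neutrophil list is led by normal paired 18 (3.46) and 16 (2.21).

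Markers of inflammatory and resident immune cells were also higher on balance, and their part in the acute phase values was not tested. All 13 neutrophil markers had a positive change, with a median of 0.42, but 0 had an unadjusted p under 0.05. Their mean level ran from -0.59 over -0.15 to 3.46 in paired and from -0.68 over -0.47 to 0.92 in unpaired arrays, so most paired arrays lay in the unpaired range. Retnlg, a neutrophil granule gene, differed by 0.90 ± 0.521 (SE; adjusted p = 0.697), and Mmp8, the neutrophil collagenase, by 0.62 ± 0.391 (0.732). Without normal paired 16 and 18 the median of the list was 0.25. Of 19 Kupffer cell and macrophage markers 18 were positive, with a median of 0.36. With the 3 arrays of unclear title counted as paired that median was 0.11. Cd163, a haemoglobin scavenger receptor, differed by 0.94 ± 0.325 (adjusted p = 0.381) and Clec4f, a Kupffer cell lectin, by 0.54 ± 0.218 (0.496). The mean level of the list ran from -0.98 over 0.19 to 1.46 in paired and from -0.93 over -0.26 to 0.78 in unpaired arrays. Markers of other cells moved less. Sinusoidal endothelium had a median of -0.09 over 14 markers, stellate cells and fibroblasts -0.01 over 22, cholangiocytes 0.03 over 8, T and NK cells 0.12 over 18, and B and plasma cells 0.16 over 10. Values on these arrays have no zero, so absence of a marker could not be read.

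Genes of fatty acid oxidation and of its regulator PPARa were mostly below unpaired liver in paired liver, without passing the test. Of 26 measured, 0 were called, 25 had a negative change, and the median was -0.30. At an unadjusted p under 0.05, 11 were lower and 0 higher, beside 5.33% and 2.64% of all genes. Acaa1b, a peroxisomal thiolase, ran from 8.57 over 10.18 to 11.89 in paired and from 10.33 over 12.02 to 12.18 in unpaired arrays. It was below the unpaired median in 18 of 18 paired arrays, a count that follows in part from how the gene was picked from its list. The difference was -1.37 ± 0.346 (SE; adjusted p = 0.174). Acot1, a cytosolic acyl-CoA thioesterase, differed by -0.86 ± 0.219 (adjusted p = 0.176). The list level ran from -0.79 over -0.12 to 0.44 in paired and from -0.11 over 0.18 to 0.67 in unpaired arrays. In male-labelled arrays alone 25 of 26 were again negative with a median of -0.32, and without normal paired 16 and 18 the median was -0.27. Over 23 other ways of fitting, the median of the fatty acid oxidation and PPARa list lay between -0.38 with array weights and -0.18 with the 3 arrays of unclear title counted as paired, and over those that left out 1 array between -0.34 and -0.26. Array weights called 5 of its genes (smallest adjusted p 0.0070) and the fit without both arrays titled 42946-1m called 1 (0.0456). Over all 22180 genes these fits called 339 lower and 93 higher, and 62 lower and 5 higher.

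Of 17 genes of gluconeogenesis and fasting 12 were negative with a median of -0.15, and 0 were called. Ppargc1a, the fasting-induced coactivator and close relative of Ppargc1b, ran from 7.23 over 8.13 to 8.99 in paired and from 8.21 over 8.95 to 11.31 in unpaired arrays. The highest was the array titled 42946-1m and marked -/-. The difference was -0.97 ± 0.261 (SE; adjusted p = 0.205), or -0.76 (0.202) without that array. Klf15, a transcription factor of amino acid breakdown, differed by -0.63 ± 0.163 (adjusted p = 0.177). Igfbp1, an insulin-repressed secreted protein, went the other way at 1.12 ± 0.495 (0.552). Etnppl, a phospho-lyase of phosphoethanolamine placed in the periportal list, had the largest difference here, -1.45 ± 0.332 (adjusted p = 0.119). It ran from 6.41 over 8.46 to 9.49 in paired and from 8.12 over 9.74 to 11.36 in unpaired arrays. Of 28 genes that break down propionate or branched-chain amino acids, 23 were negative with a median of -0.15, among them Ivd (-0.56, adjusted p = 0.234) and Mccc1 (-0.41, 0.307), both of leucine breakdown. Mmut, the mutase that ends propionate breakdown, differed by -0.38 ± 0.308 (0.804). It ran from 8.16 over 9.39 to 10.95 in paired and from 8.21 over 9.95 to 11.38 in unpaired arrays. Of 8 urea cycle genes 7 were negative with a median of -0.16, led by Ass1, argininosuccinate synthase (-0.79 ± 0.199, adjusted p = 0.174), and Slc25a13, the aspartate and glutamate carrier (-0.44 ± 0.153, 0.376).

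**Figure D4:**
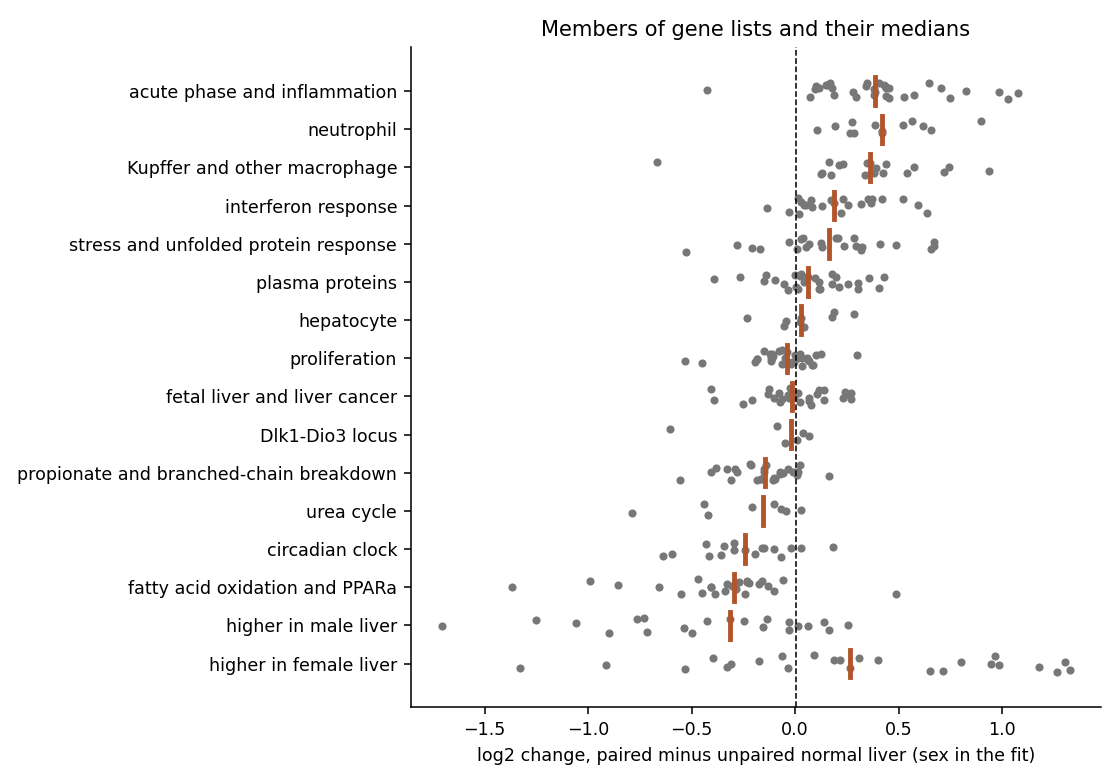
Log2 change of each measured member (points) of 16 gene lists, paired minus unpaired normal liver with labelled sex in the fit; bars are list medians and the dashed line is the median of all 22180 genes (0.004). Medians run from -0.31 for genes higher in male liver to 0.42 for neutrophil markers, and no member of these lists was called.

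Genes that differ between the sexes in liver bear on the comparison because the groups differ in their share of females and 3 paired arrays went against their label. Of 21 genes of the male-higher list 16 were negative with a median of -0.31, and of 25 of the female-higher list 16 were positive with a median of 0.27, with 0 called. Elovl3, a fatty acid elongase of male liver, ran from 6.14 over 7.14 to 11.70 in paired and from 6.33 over 8.49 to 12.34 in unpaired arrays, a difference of -1.71 ± 0.637 (SE; adjusted p = 0.430). Cyp17a1, a steroid hydroxylase, differed by 1.31 ± 0.529 (0.502). Members of the female-higher list ran from -1.33 to 1.33. Cyp2b13, a cytochrome P450, was lower in paired liver, by between -1.70 and -1.01 over the fits that each left out 1 array. Its means were 8.50 in paired and 12.37 in unpaired arrays labelled female, and 7.81 and 8.34 in those labelled male. Among arrays labelled male, the level of the male-higher list was above the mean of the normal arrays in 3 of 11 paired and 7 of 9 unpaired arrays, and in 3 of 9 paired arrays once those that go against the label were left out. The paired males ran from -0.93 over -0.26 to 1.85 and the unpaired males from -1.35 over 0.72 to 1.74, so the ranges overlap while the medians lie apart. Both unpaired males below the mean were the arrays titled 42946-1m (-1.04 and -1.35). In male-labelled arrays alone the median change of the male-higher list was -0.37 and that of the female-higher list 0.69, with 0 called in either. Where 2 arrays of unclear title, 7064-A and MS0906414C, were counted as paired because tumor titles share their number, the median of the male-higher list was -0.07, and with MS0907064E also counted as paired it was 0.015, with 13 of 21 positive. Without the array titled 42946-1m and marked -/- the median of the genes higher in male liver was -0.48 with 17 of 21 negative, and without both arrays titled 42946-1m -0.60 with 19 of 21. Leaving out each array in turn gave -0.48 to -0.15. No gene passed a test of whether the paired difference depended on labelled sex (smallest adjusted p 0.620, 3.02% at an unadjusted p under 0.05), with 2 unpaired females only.

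**Figure D5:**
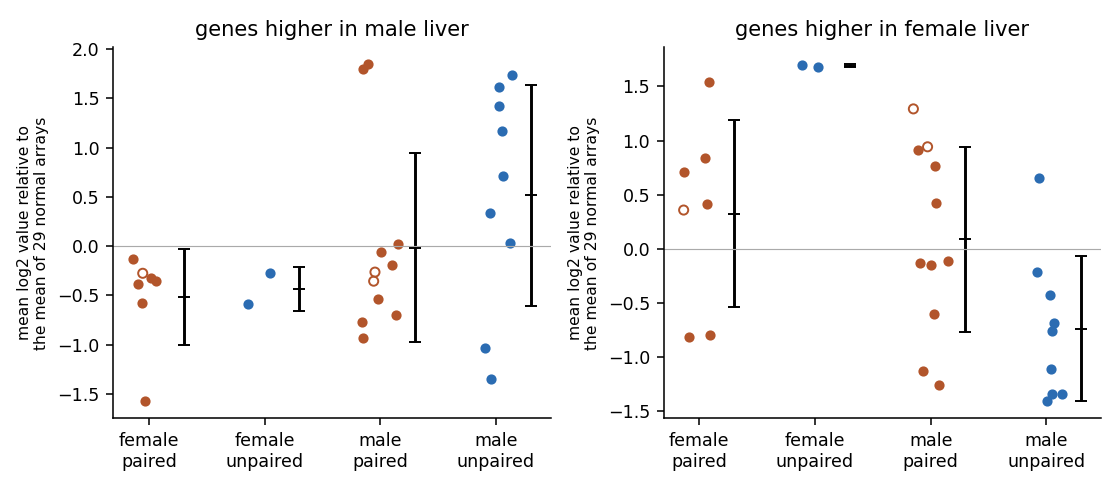
Mean log2 level of genes higher in male liver (left) and in female liver (right) in each normal array, relative to the mean of the 29 normal arrays, by gender label and pairing, with mean and SD as bars; open circles are the 3 paired arrays whose Y-linked genes and Xist go against the label. Of the male-labelled arrays, 3 of 11 paired and 7 of 9 unpaired lie above 0 on the left.

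No gene of the tumor lists passed between paired and unpaired normal liver in the fit as reported. None of the 20 genes of largest tumor change had an unadjusted p under 0.05, and the median was 0.09. Without the array titled 42946-1m and marked -/- that median was 0.03, and 3 of the 20 had an unadjusted p under 0.05, 2 higher and 1 lower in paired liver, beside 9.01% of all genes. Without both arrays titled 42946-1m 7 of the 20 had such a p, beside 12.2% of all genes, and the median was 0.0076. This list holds 10 genes higher and 10 lower in tumors, so its median cannot show a tumor-like shift. By array, the mean level of the 10 higher in tumors ran from -0.47 over 0.01 to 0.77 in paired normal liver. In unpaired normal liver it ran from -0.68 over -0.38 to 2.98, with 2.98 and 0.38 in the arrays titled 42946-1m. The 10 lower in tumors had median levels of 0.315 in paired and 0.39 in unpaired normal liver. These levels were not tested. The 35 proliferation genes had a median of -0.04, with Tk1, a nucleotide salvage kinase of dividing cells, at -0.53 ± 0.174 (adjusted p = 0.347). Tk1 passed with array weights (limma adjusted p = 0.0295), a fit that called 339 genes lower and 93 higher. Of the 30 fetal liver and liver cancer genes 14 were positive with a median of -0.01. Without the array titled 42946-1m and marked -/- 22 were positive with a median of 0.07. Among the 30 genes were Gpc3, a fetal glypican, at 0.23 ± 0.164 (0.767) and Ccnd1, cyclin D1, at -0.41 ± 0.343 (0.811). Afp ran from 6.70 over 7.16 to 8.51 in paired and from 6.85 over 7.09 to 10.09 in unpaired arrays. Its difference of -0.13 ± 0.238 (adjusted p = 0.931) turned to 0.13 without the array titled 42946-1m and marked -/-. Cyp11a1 likewise went from -0.20 to 0.22 and Slco1b2 from 0.29 to -0.22. Slc7a11, the cystine transporter, differed by 1.12 ± 0.692 (0.724).

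The Dlk1-Dio3 locus is an imprinted region of noncoding RNAs and growth genes known as a site of AAV insertion in mouse liver tumors. In normal liver its 6 measured genes had a median change of -0.02. Rian, a noncoding RNA of the locus, ran from 5.88 over 6.38 to 8.37 in paired and from 5.99 over 7.15 to 8.83 in unpaired arrays, with the array titled 42946-1m and marked -/- highest. The difference was -0.61 ± 0.299 (SE; adjusted p = 0.631), or -0.49 (0.665) without that array. Meg3, the neighbouring noncoding RNA, differed by -0.09 ± 0.126 (0.901) and Dlk1, a growth protein, by 0.06 ± 0.048 (0.786). The groups overlapped in all 3.

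Tumors gave a second comparison. The 18 paired tumors came from the paired animals, and the 11 unpaired tumors were read as coming from other animals than the 29 normal arrays. Tumor unpaired 5 has no gender label and was left out of the fit. Tumor unpaired 4 and 8 share the title 32856-2m and were read as the same animal. Paired and unpaired tumors differed in 0 called genes (smallest adjusted p 0.137, with 4.80% at an unadjusted p under 0.05). In that fit, which holds the animal as a random block over 57 arrays, no gene had a pairing difference that depended on tissue (smallest adjusted p 1.00, 1.53% unadjusted). Slc25a34 differed by -0.23 between paired and unpaired tumors (unadjusted p = 0.063, adjusted p = 0.971) and Tob1 by -0.54 (0.0429 and 0.971). The mean of Tob1 was 10.24 in paired tumors and 10.70 in all 11 unpaired tumors. In normal liver it was 9.33 in paired and 10.23 in unpaired arrays. The unpaired tumors and unpaired normal livers were from different animals as the titles were read. Ppargc1b differed by -0.49 in tumors (unadjusted p = 0.00279, adjusted p = 0.971). Fatty acid oxidation genes had a median of -0.25 in tumors, with 25 of 26 negative, and acute phase genes 0.03, with 18 of 33 positive. Hepatocyte genes were lower on balance too. Of 9 hepatocyte markers 0 were positive (median -0.28), of 29 plasma protein genes 27 were negative (-0.31), of 49 cytochrome P450 genes 44 (-0.27) and of 13 complement genes 13 (-0.35), with 0 called in each. One tumor, tumor paired 9, had a hepatocyte marker level of -4.79 and a B and plasma cell level of 2.92, while the unpaired tumors ran from -0.79 to 0.25 and from -0.52 to 0.56. Without it, a choice made after seeing the data, the hepatocyte median was 0.00087 with 5 of 9 positive, that of plasma proteins -0.08 and that of cytochrome P450 genes -0.15. Fatty acid oxidation genes then had a median of -0.15 with 24 of 26 negative, acute phase genes 0.11 with 29 of 33 positive, and Tob1 differed by -0.36 (unadjusted p = 0.0867).

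Daily and stress programs are listed last because the sources used here do not give the hour or mode of collection. Of 17 clock genes 15 were negative with a median of -0.24 and 0 had an unadjusted p under 0.05. Nr1d1, the clock repressor, ran from 8.01 over 10.21 to 11.59 in paired and from 9.01 over 10.67 to 11.65 in unpaired arrays, a difference of -0.64 ± 0.330 (adjusted p = 0.643). Of 24 stress and unfolded protein response genes 19 were positive with a median of 0.16. Xbp1, a secretory pathway regulator, differed by 0.41 ± 0.132 (adjusted p = 0.333) and Asns, asparagine synthetase, by 0.67 ± 0.337 (0.632). Of 18 immediate early genes 11 were positive with a median of 0.07, 0 were called and 1 had an unadjusted p under 0.05. Egr1, a transcription factor of this list, ran from 7.14 over 8.30 to 10.44 in paired and from 6.82 over 7.59 to 8.67 in unpaired arrays, a difference of 0.92 ± 0.300 (0.347). Normal paired 16 was the highest paired array for Egr1 as for Lcn2, Retnlg and Igfbp1.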

How the data were processed

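RNA of 58 liver samples was hybridised to Affymetrix Mouse Gene 2.0 ST arrays after extraction with the miRNeasy kit, per the labels' protocols. Per the submitters' processing notes the authors used Affymetrix Expression Console, and they deposited 1 log2 value per transcript cluster and array. Its version, the algorithm and the build are each not given in the sources used here, and array number limits precision. Of 41345 clusters 23521 have 1 gene symbol, and the brightest cluster per gene was used. Groups came from tissue labels and titles. limma 3.58.1 in R 4.3.3 (lmFit with labelled sex, eBayes with trend, Benjamini-Hochberg) gave every change and adjusted p, and the fit was tested on simulated data. The tumor comparison used a random animal block (correlation 0.118). Alternatives covered array choice, sex, marks, scaling, weights, brightness, blocking and each array left out. Groups, genes and the 43 lists were chosen with earlier results of these data known. The genes named come from the 10 each way of largest change or smallest p, and from genes of the tumor study. They also come from up to 2 of smallest p and 1 of largest change per list. Not every gene so picked is described, and some left out, such as Lyve1 of sinusoidal endothelium, went against their list's median. Lists got no set test.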

Additional observations from a re-analysis of the deposited data

How the results depend on the processing

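The count of lower calls was 2 as reported. It was 0 without the array titled 42946-1m and marked -/-, with 2 arrays of unclear title counted as paired, with 3 (MS0907064E added) counted as paired or left out, with the first array counted as paired, with the mark as covariate, and without that array and 26558-2f (normal paired 16). It was 1 in 6 fits. The call was Tob1 without arrays against the gender label (also without that array), without those 2 arrays and after quantile normalization, Slc25a34 after median centring, and Mir1968, neither reported gene, in unmarked arrays alone. It was 5 in the brighter genes, both reported genes among them, 4 in the fit over both tissues (1 higher), which lost Tob1, 9 without 26558-2f and 51101-2f, 62 without both arrays titled 42946-1m (5 higher), and 339 with array weights (93 higher), which gave normal paired 16 the lowest weight, 0.21. Leaving out each array in turn gave 0 to 9 lower and 0 to 1 higher, with 0 lower in 12 of 29 fits. The choices that drop 26558-2f, both 42946-1m arrays or the array marked -/- with others, count that array as paired, or treat MS0907064E as unclear were made after seeing the data. Why the counts moved was not tested beyond fewer arrays or genes by construction. Slc25a34 and Tob1 were negative in all 29 fits without 1 array and in the 23 others. In male-labelled arrays alone Tob1 did not pass (adjusted p = 0.288; 0.00252 to 0.565 over the 23).

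Afp was 0.13 without the array marked -/-, 0.19 in unmarked arrays, 0.0076 with array weights, 0.16 without it and the arrays against the label, 0.083 without it and 26558-2f, 0.14 without both 42946-1m arrays and 0.32 with the array marked -/- counted as paired. In the same order Cyp11a1 was 0.22, 0.26, 0.067, 0.24, 0.23, 0.22 and 0.52, and 0.0090 with the mark as covariate, and Slco1b2 -0.22, -0.34, -0.085, -0.28, -0.18, -0.31 and -0.59. Leaving out each array in turn gave -0.21 to 0.13 for Afp, -0.27 to 0.22 for Cyp11a1 and -0.22 to 0.40 for Slco1b2. Without the arrays against the label Xist was -0.047, Kdm5d 0.028 and Eif2s3y 0.013, and Xist -0.063 and Kdm5d 0.0021 when the array marked -/- was also left out. With the 3 arrays of unclear title counted as paired Mmut was 0.29 and Bcl6 0.069, and with them left out Mmut was 0.035.

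No paired analysis was possible because the labels give no replicate numbers and the groups hold different animals; a random block on the title number (correlation 0.036) gave the same 2 calls. Dim genes have no stated detection limit.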

Other observations

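Interferon response genes, which liver cells switch on against viruses, had a positive change in 21 of 23 measured members between paired and unpaired normal liver, with a median of 0.19, and a negative one in 22 of 23 between paired and unpaired tumors, with a median of -0.43. In normal liver the count was 17 of 23 (median 0.20) without the array titled 42946-1m and marked -/-. With 7064-A and MS0906414C counted as paired the interferon response count was 15 of 23 (0.07), and with MS0907064E as well 13 of 23 (0.02). Leaving out each array in turn gave medians of 0.12 to 0.28. Without tumor paired 9 the tumors still gave 22 of 23 negative, with a median of -0.36. No member passed in either tissue (limma, Benjamini-Hochberg adjusted p). At an unadjusted p under 0.05 there were 0 of 23 in normal liver, beside 7.97% of all genes. In tumors there were 6 of 23, beside 4.80% of all genes. Oasl2, an antiviral oligoadenylate synthetase-like gene, ran from 7.76 over 9.65 to 10.35 in paired and from 7.40 over 8.26 to 10.61 in unpaired normal arrays. It differed by 0.64 in normal liver and by -0.61 in tumors, and the difference between the tissues had an unadjusted p of 0.00489 and an adjusted p of 1.00. Usp18, which limits interferon signalling, differed by 0.59 and -0.40.

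Other metabolic genes were spread in both directions, with 0 called. Of 28 lipogenesis and lipid droplet genes 18 were negative with a median of -0.15, from G0s2, an inhibitor of fat breakdown (-0.64 ± 0.196 SE, adjusted p = 0.308), and Plin4, a lipid droplet coat protein (-0.67 ± 0.244, 0.409), to Pnpla3, a lipid droplet protein (0.85 ± 0.446, 0.659). Of 17 cholesterol synthesis genes 15 were positive with a median of 0.14, which was 0.05 without the array titled 42946-1m and marked -/-. Glutathione transferases Gstt2 and Gsta4 differed by -0.87 ± 0.239 (adjusted p = 0.218) and -0.70 ± 0.219 (0.326), and both were lowest in normal paired 18. Of 24 pericentral genes 17 were positive, and without the array titled 42946-1m and marked -/- 9 were, with medians of 0.13 and -0.02. Cyp39a1, an oxysterol hydroxylase, differed by 0.97 ± 0.300 (0.308) and Abcc3, a bile acid exporter, by -0.58 ± 0.200 (0.365).

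Of 15 growth hormone and IGF genes 6 were positive with a median of -0.02, and of 13 imprinted growth genes 5 were positive with a median of -0.08, with 0 called in either list. Socs2, a feedback inhibitor of growth hormone signalling, differed by 1.10 ± 0.440 (adjusted p = 0.494), and Bcl6, a transcriptional repressor, by -0.70 ± 0.298 (0.540). Slc38a4, an imprinted amino acid transporter, differed by -0.46 ± 0.139 (0.301).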
